A study of Homo sapiens with 3 samples.

Results

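The genes whose products build the nuclear pore or carry cargo through it had 459 edit clusters in 59 genes, of 40843 clusters under 9904 gene names in all. An edit cluster is a stretch of RNA in which C-to-U edits were enriched, as the FLARE workflow calls it. Members were chosen by gene symbol alone. They comprised the NUP and NUPL genes, POM121 and its copies, TPR, the importins (KPNA, KPNB and IPO genes), the exportins (XPO genes and CSE1L), the transportins (TNPO genes), RAN with RANGAP1, RCC1 and the RANBP genes, and NXF1. All 59 names were found in the RefSeq gene table, as a symbol or an older name. That table holds 61 protein-coding symbols that fit these names, of which KPNA7, NUP210L and TNPO3 had no cluster. TNPO3 imports serine/arginine-rich splicing factors and KPNA7 is an importin alpha of early embryos. The names are a rule of spelling and not of function: RANBP9 and RANBP10, which belong to a ubiquitin ligase complex, NUP62CL and the pseudogene POM121B also fit and were kept apart as other genes.

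The samples were 3 replicates of 1 condition, HEK293T cells (the lenti-X line, labelled HEK293XT and wild type) that expressed RBFOX2 fused to the cytidine deaminase APOBEC1 after 72 h of doxycycline. The labels speak both of transient transfection and of stable lines, and no replicate was a control without the fusion, so editing that does not depend on RBFOX2 was not measured here. The study's text calls them biological replicates, while the labels give replicate numbers only and do not say how they were grown.

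In this design, called STAMP, the deaminase turns C into U in RNA near the places where its partner protein sits. RBFOX2 is a splicing regulator that binds GCAUG motifs in introns and in 3′ untranslated regions. The nuclear pore is a ring of nucleoporins in the nuclear envelope. Its outer and inner rings form the scaffold, proteins rich in phenylalanine-glycine repeats fill the channel, and filaments reach into the cytoplasm and a basket into the nucleus. Importins and exportins bind cargo and pass through the channel, and the GTPase RAN sets their direction, because RCC1 loads it with GTP on chromatin and RANGAP1 triggers GTP hydrolysis in the cytoplasm. Bulk mRNA leaves through NXF1 without RAN. Most of these genes are expressed in dividing cells of any tissue.

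Replicates 1, 2 and 3 held 178, 152 and 129 of these clusters, or 1.25%, 1.00% and 1.13% of all clusters (Wilson 95% intervals 1.08% to 1.44%, 0.855% to 1.17% and 0.956% to 1.35%, which cover counting error only). The mean was 1.13% ± 0.122 (SD, n = 3). They rested on 12473, 13982 and 8363 reads, of which 428, 417 and 300 carried an edit. The reads of all clusters numbered 1637592, 1731304 and 1104249, which is not the depth of the libraries, since only called clusters are listed.

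Clusters were found for 50, 54 and 44 of the genes in the 3 replicates. Of the 59 genes, 37 (62.7%) had clusters in all 3, 15 in 2 and 7 in 1, whereas 37.9% of all gene names had clusters in all 3. The members also held more clusters, with a median of 7 per gene against 3 per gene name in the whole series. Among genes with 3 to 5 clusters, 58.3% of 12 members and 44.5% of all gene names were present in all 3 replicates. With 6 to 9 clusters the shares were 68.4% of 19 members and 86.7% of all names, and with at least 10 clusters 94.4% of 18 members and 98.6% of all names. Of these 3 classes the members' share was thus higher in 1 and lower in the others. Genes with 1 or 2 clusters cannot be present in all 3 replicates. The number of clusters was not corrected for the length or the level of a transcript.

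**Figure D1:**
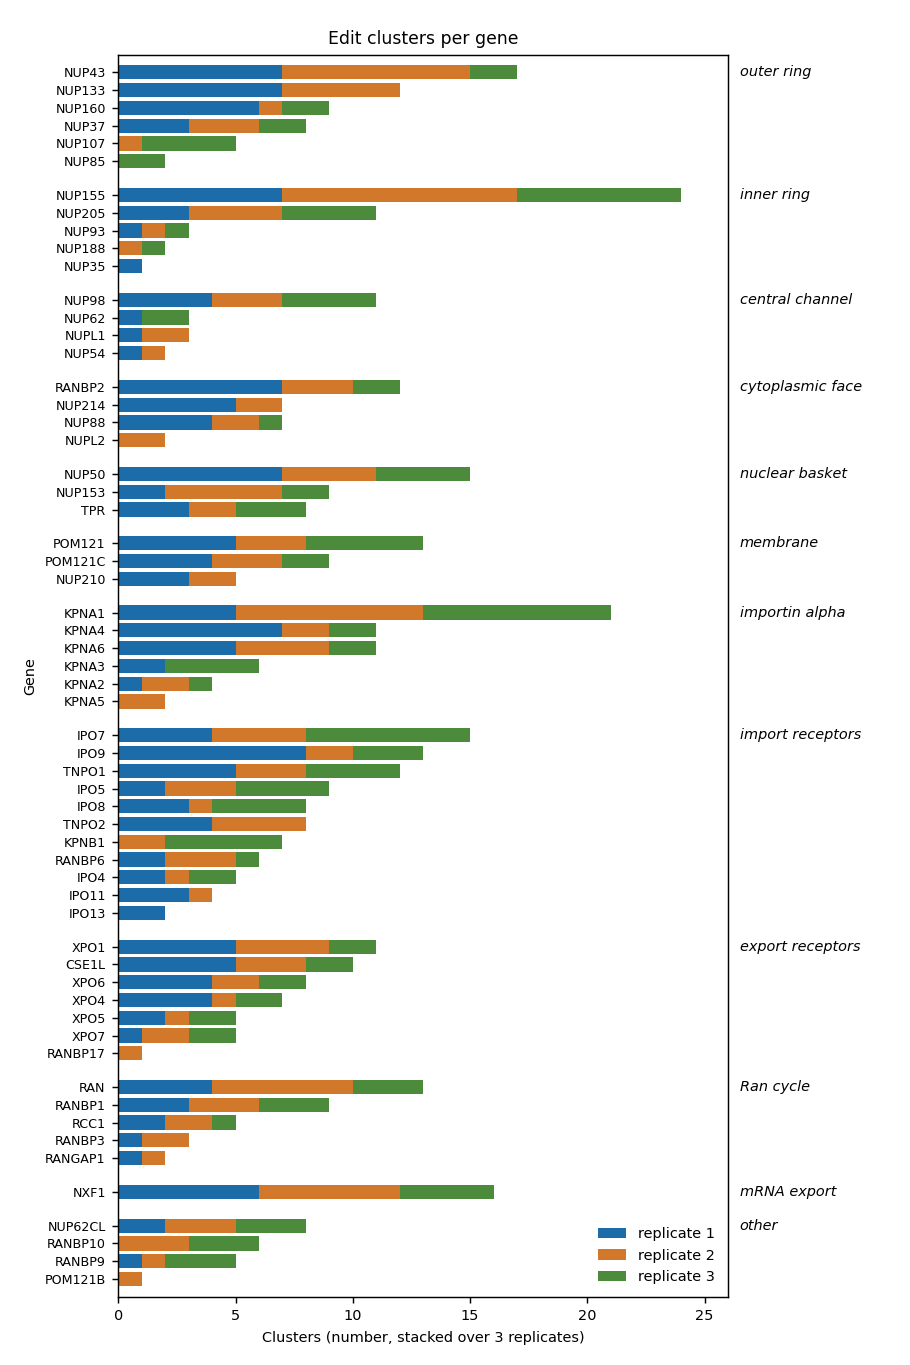
Edit clusters per gene, as bars stacked over the 3 replicates, with genes ordered by number within groups of like role. NUP155 had 24 clusters and KPNA1 21, and NUP133, with 12, had none in replicate 3.

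The 18 genes with at least 10 clusters held 248 of the 459. They were 30.5% of the member genes, against 11.4% of all gene names with that many. These 18 came from most of the machinery and not from 1 compartment of it. NUP155, a scaffold subunit of the inner ring, led with 24 clusters (7, 10 and 7 in replicates 1, 2 and 3). KPNA1, an importin alpha, followed with 21 (5, 8 and 8), NUP43 of the outer ring with 17 (7, 8 and 2) and NXF1 with 16 (6, 6 and 4). IPO7, an import receptor, and NUP50, a mobile protein of the basket, had 15 each. IPO9, an import receptor of histones, RAN and the membrane anchor POM121 had 13 each, and NUP133, TNPO1 and RANBP2 shared the next place with 12.

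The 6 genes assigned here to the outer ring, or Y complex, held 53 clusters, and all 6 had at least 1. The groups hold only genes whose symbols fit the names above, so they are not full lists of subunits. Editing of a cluster is given as its edit fraction, the edited C bases divided by the C bases that its reads cover. The median over the ring's clusters was 1.39%, 1.41% and 1.54% in replicates 1, 2 and 3 (1.45% ± 0.0854, SD, n = 3). NUP43, a propeller protein of the complex, had a pooled edit fraction over its called clusters of 1.96%, 1.90% and 1.70%. These similar values come mostly from different positions, since 12 of its 14 loci were found in 1 replicate. In replicate 3 the value rests on 2 clusters with 3 edited reads. NUP133, which touches membranes, had 7 and 5 clusters in replicates 1 and 2 and none in replicate 3, and no position of the gene was shared between the 2. NUP107, the subunit for which the complex is often named, had 1 cluster in replicate 2 and 4 in replicate 3, and NUP85 had 2, both in replicate 3.

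The inner ring had 41 clusters in 5 genes, with medians of 1.61%, 1.43% and 1.49%. NUP155 supplied 24 of them and NUP205, a large scaffold protein, 11. The pooled edit fraction of NUP155 was 2.12%, 1.67% and 1.47%. Its 24 clusters lay in 19 loci, a locus being a stretch joined from clusters of any replicate that overlap on 1 strand. No NUP155 locus recurred in all 3 replicates and 5 recurred in 2. NUP93 had 1 cluster in each replicate, at 3 different loci, and NUP35, which binds membranes, had 1 in all.

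Genes assigned to the central channel had few clusters, 19 in 4 genes, and a median edit fraction of 2.94%, 2.49% and 2.01%. The mean of 2.48% ± 0.467 was the highest of the groups, although in replicate 3 the import receptors (2.24%), the other genes (2.08%) and the cytoplasmic face (2.05%) were higher. Their median read depth was also low, at 18.4, 19.6 and 16.4 reads. Per the study's methods, windows with few reads needed a stronger signal to be called. Groups that differ in depth are thus not directly comparable, and the part of depth in this ranking was not tested. NUP98, a nucleoporin rich in glycine-leucine-phenylalanine-glycine repeats that also binds chromatin, held 11 of the 19, each at a locus of its own. One NUP98 cluster in replicate 3 had the highest edit fraction of any member, 16.7%, which was 1 edited base of 6 covered C bases.

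The cytoplasmic face had 28 clusters, unevenly spread over replicates (16, 9 and 3). RANBP2, the giant filament protein that acts as a SUMO ligase, held 12, each at its own locus, and its pooled edit fraction was 1.59%, 1.53% and 1.83%. RANBP2 shares nearly identical sequence with the RGPD genes, so the assignment of its reads is uncertain. NUP214 and NUP88, which form a platform for mRNA export, had 7 clusters each, and NUPL2 had 2, both in replicate 2. The nuclear basket had 32 clusters in 3 genes, all of them present in every replicate. NUP50 held 15, at pooled edit fractions of 1.87%, 1.5% and 1.57%, and 4 of its 11 loci recurred in 2 replicates. The membrane group had 27 clusters, of which POM121 had 13 (0.785%, 1.09% and 1.62%), POM121C 9 and NUP210 5. POM121, POM121C and POM121B are near-identical copies on chromosome 7, and which copy a read came from is uncertain.

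**Figure D2:**
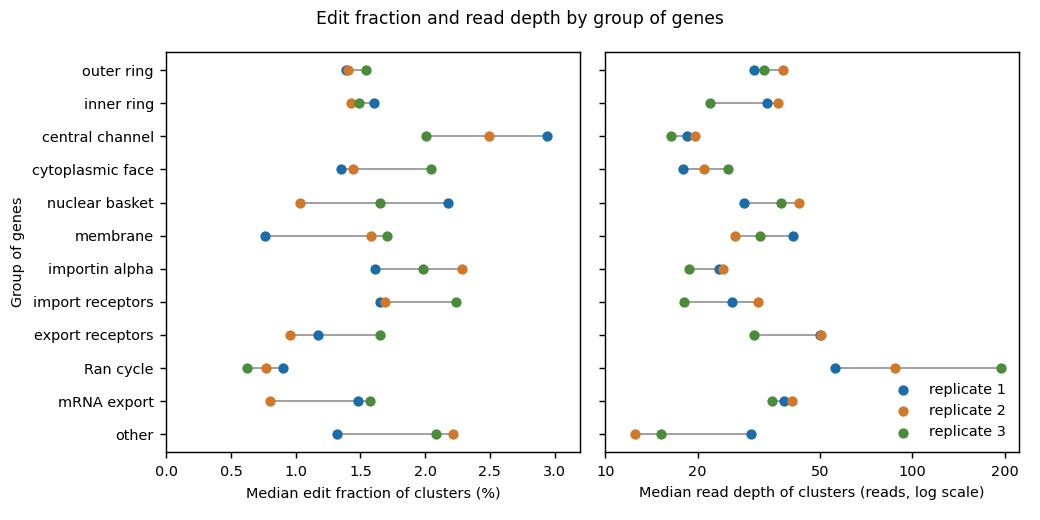
Median edit fraction in percent (left) and median read depth on a log scale (right) of the clusters in each group of genes, with 1 point per replicate and a line from the lowest to the highest. The Ran cycle had the greatest depth in every replicate and edit fractions of 0.624% to 0.898%, whereas the central channel lay between 2.01% and 2.94%.

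Of the groups, the import receptors (89) and the importin alpha adaptors (55) had the most clusters, which also depends on how many genes a group holds. Per gene with clusters they had 8.09 and 9.17, against 10.7 in the nuclear basket and 8.83 in the outer ring. The importin alpha genes, which recognise the classical nuclear localisation signal and hand cargo to KPNB1, had 55 clusters with medians of 1.61%, 2.28% and 1.98%. KPNA1 was found in each replicate at 2.47%, 1.69% and 2.14% (pooled). KPNA4 had the widest range of the genes present in all 3 replicates, with 2.05%, 7.69% and 1.65%, and its value in replicate 2 came from 2 clusters with 6 edited of 78 covered C bases. KPNA2, the most deeply covered of them, had 4 clusters and a low pooled fraction of 0.357%, 0.857% and 0.948%. KPNA5 had 2 clusters, both in replicate 2, and KPNA3 had none in replicate 2.

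The import receptors of the importin beta family had 89 clusters in 11 genes, with medians of 1.65%, 1.69% and 2.24%. IPO7, which carries ribosomal proteins, was at 1.77%, 1.03% and 1.85% (pooled), and 11 of its 15 clusters lay in 1 exon, number 55. IPO9 had 12 of its 13 clusters in exon 50 and values of 1.09%, 0.608% and 1.31%. TNPO1, the receptor of the proline-tyrosine signal of hnRNP proteins, was at 1.52%, 1.36% and 4.32%, over 12 loci that did not recur. KPNB1, the common partner of the importin alphas, had no cluster in replicate 1, 2 in replicate 2 and 5 in replicate 3. IPO13 had 2 clusters, both in replicate 1.

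Export receptors had 47 clusters in 7 genes at medians of 1.17%, 0.952% and 1.65%, with a median depth of 50, 50.5 and 30.6 reads. XPO1, the receptor of leucine-rich export signals, had 11 clusters (0.517%, 0.774% and 1.53% pooled) and 3 loci found in 2 replicates. CSE1L, which returns importin alpha to the cytoplasm, had 10 clusters at 1.08%, 0.742% and 0.924%. XPO4 was higher, at 3.31%, 4.49% and 2.00%, with all 7 of its clusters in the exon numbered 0. XPO5 carries precursor microRNAs and had 5 clusters, and RANBP17 had 1.

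The genes with the highest pooled edit fraction among those present in all 3 replicates were RANBP6 (3.81% ± 0.913), KPNA4 (3.8% ± 3.38), XPO4 (3.27% ± 1.25), IPO8 (2.61% ± 1.27) and TNPO1 (2.40% ± 1.66, SD, n = 3). They are 3 import receptors, 1 adaptor and 1 export receptor, and no pore subunit is among them. RANBP6 was at 3.29%, 3.28% and 4.87%, and was the only one of these 5 that stayed above 3% in each replicate. Median depth per replicate was between 6.09 and 29.5 reads in all 5, a range in which calling required a stronger signal than at high depth. Their order is not settled, since the ranges over replicates of each neighbouring pair overlapped.

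The Ran cycle stood apart in depth. Its 5 genes had 32 clusters with a median depth of 56.1, 88.0 and 194 reads in replicates 1, 2 and 3, the greatest of the groups in each. Their median edit fraction was 0.898%, 0.771% and 0.624%, which was the lowest of the groups in replicates 2 and 3. In replicate 1 the membrane group was lower, at 0.765%. Deep windows could be called at lower edit fractions, and how far depth accounts for these low values was not tested. RAN itself had 13 clusters with a pooled edit fraction of 0.424%, 0.402% and 0.342% (0.389% ± 0.0421), the lowest of the genes present in all 3 replicates. RANBP1, which helps RANGAP1 to act on RAN, was at 0.495%, 0.701% and 0.491%. RCC1 was at 1.20%, 1.36% and 0.893%, but each of its 5 clusters also carries the name of SNHG3, a host gene of small nucleolar RNAs. RANGAP1 had 1 cluster in replicate 1 and 1 in replicate 2, at the same locus (0.452% and 0.532%).

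RAN held the clusters with the most edited reads of any member. On chromosome 12, plus strand, in the exon numbered 4, a cluster at 131360667 to 131360712 in replicate 1 had 17 edited of 1466 reads. In replicate 2 the same interval had 17 of 1013, and a second cluster at 131360562 to 131360607 had 18 of 1768. In replicate 3, a single cluster from 131360562 to 131360667 had 30 of 1662 reads. The 3 replicates thus had edits within the same 150 bases. The intervals of replicates 1 and 3 meet at 1 end without overlapping, so they were counted as a pair of loci, each in 2 replicates. Edit fractions here were between 0.262% and 0.508%. RAN has many processed pseudogenes, and reads that could come from them make these values uncertain.

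NXF1, the receptor of bulk mRNA export, had 16 clusters in 11 loci and a pooled edit fraction over them of 1.42%, 0.757% and 1.52%. Stretches in exons 0 and 2 recurred in all 3 replicates, as given below. Pore subunits as a whole (25 genes, 200 clusters) had medians of 1.40%, 1.41% and 1.66%, and receptors and adaptors (24 genes, 191 clusters) 1.52%, 1.49% and 2.04%. The means were 1.49% ± 0.147 and 1.68% ± 0.310 with overlapping ranges over the replicates, and median depth was 29.8 ± 3.63 and 26.4 ± 6.60 reads.

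The 459 clusters formed 390 loci, of which 333 were found in 1 replicate, 45 in 2 and 12 in 3. That is 3.08% of loci in 3 replicates and 11.5% in 2, against 4.77% and 11.9% of all 33244 loci of the series. By their member names the 12 loci lay in 10 genes: import adaptors (KPNA1, KPNA2, KPNA6), import receptors (IPO4, IPO7), an export receptor (XPO6), RANBP1, NXF1 and, of the pore, NUP43 and POM121. At 3 of the 12, those of IPO4, KPNA6 and RANBP1, the clusters also carry other gene names, so the gene is uncertain there. No locus of the inner ring, the channel, the cytoplasmic face or the basket recurred in all 3. These groups held only 41, 19, 28 and 32 clusters, too few to read a difference between roles from this. Coordinates below are those of the deposited clusters on hg19, whose counting from 0 or 1 is not stated, and exons carry the numbers of the deposited labels.

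The KPNA1 locus (chromosome 3, 122145101 to 122145206, minus strand, exon 0) had the highest mean edit fraction, 2.58%, 2.22% and 7.19% in replicates 1, 2 and 3. Replicate 3 was the high one, with 4 edited of 28 reads, against 2 of 41 and 1 of 42, and without it the mean fell from 3.99% to 2.40%, below that of KPNA6 (3.01%). Next was the higher of 2 POM121 loci (chromosome 7, 72418281 to 72418401, exon 32), at 1.68%, 1.90% and 6.67%. Its high value rests on 1 edited base of 15 covered C bases, and the mean fell from 3.42% to 1.79% without replicate 3. The KPNA6 locus (chromosome 1, 32636698 to 32636893, exon 30) was even across replicates in edit fraction, at 3.06%, 2.96% and 3.2% (3.07% ± 0.120), although 1, 5 and 3 edited reads lay behind these values. Its edited reads over all reads were uneven, at 3.57%, 10.0% and 23.1%. A second, clone-based gene name covers the KPNA6 locus.

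The IPO7 locus (chromosome 11, 9467439 to 9467529, exon 55) was at 3.08%, 0.952% and 2.82%, with 1, 1 and 2 edited reads. NUP43 (chromosome 6, 150047761 to 150047881, exon 0) was the only scaffold gene among the 12, and its locus was at 1.85%, 1.97% and 1.5% with 2, 5 and 2 edited reads. NXF1 had a locus of 30 bases in exon 2 (chromosome 11, 62561865 to 62561895), which was called with the same borders in each replicate. It was at 1.38%, 1.28% and 1.32% (1.33% ± 0.0489), the smallest SD of the 12, from 1, 1 and 2 edited reads. The other NXF1 locus, in exon 0 (62559670 to 62559790), was at 1.76%, 0.849% and 0.713%, with 5, 4 and 3 edited reads.

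XPO6, the export receptor of actin, had a locus in exon 53, toward the 5′ end of the gene (chromosome 16, 28187279 to 28187399), at 0.694%, 0.676% and 2.44%, and its mean of 1.27% was 0.685% without replicate 3. By edited reads over all reads the XPO6 locus was instead highest in replicate 1, at 6.38%, 2.78% and 5.0%. The IPO4 locus (chromosome 14, 24658511 to 24658586) was at 1.36%, 0.8% and 0.835%, and its clusters also carry the name TM9SF1. The lower POM121 locus (72417591 to 72417681) was at 0.395%, 0.606% and 1.76%, with a mean of 0.921% that was 0.501% without replicate 3. By edit fraction both POM121 loci were thus highest in replicate 3. By edited reads over all reads the higher of the 2 was lowest there, at 13.6%, 17.1% and 4.17%. Deep coverage went with the lowest values. The KPNA2 locus (chromosome 17, 66042695 to 66042875, exon 22) was at 0.357%, 1.03% and 0.948%, with 6 of 346, 15 of 481 and 8 of 293 reads edited. Its clusters of replicates 1 and 3 only abut and are joined by that of replicate 2. The RANBP1 locus (chromosome 22, 20114636 to 20114726, exon 13) was at 0.580%, 0.794% and 0.541%, with 6 of 307, 9 of 406 and 11 of 362 reads edited, and it also carries the name SNORA77.

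**Figure D3:**
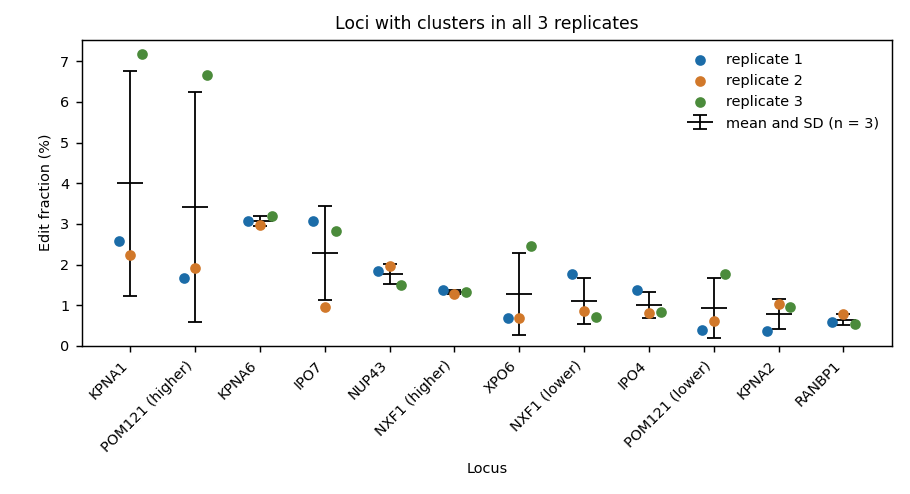
Edit fraction in percent at the 12 loci with clusters in all 3 replicates, in order of the mean, with 1 point per replicate and the mean and SD (n = 3). Means ranged from 3.99% at KPNA1 to 0.638% at RANBP1, and replicate 3 stood far above the others at KPNA1 and at the higher POM121 locus.

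Of the 11 neighbouring pairs in that order, only 1, NUP43 above the exon 2 locus of NXF1, had ranges that did not overlap. The ranges of the first and the last places did not overlap, with KPNA1 between 2.22% and 7.19% and RANBP1 between 0.541% and 0.794%. These 2 were picked as the extremes of an order made from the same values. Their mean depth also differed, at 15.1 to 27.4 reads for KPNA1 and 148 to 194 for RANBP1.

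The clusters of a gene often lay in the exon at its 3′ end, and the length of exons was not taken into account. Exon numbers rise with genomic position on both strands, in all 1977 plus-strand and all 1913 minus-strand gene names that allow a check, so exon 0 of a minus-strand gene is the one nearest its 3′ end. Of 260 minus-strand member clusters, 145 lay in exon 0. At least 1 lay there in 25 of 30 minus-strand member genes, but the like share of all minus-strand gene names was not computed. By replicate, 57.3%, 56.8% and 52.2% of the minus-strand member clusters were in exon 0. The other minus-strand clusters had 62.2%, 57.3% and 59.3% there, so the members were lower in each replicate, least so in replicate 2. NUP155 had 12 of its 24 clusters in exon 0, KPNA1 15 of 21, NUP43 12 of 17 and KPNA4 8 of 11. All clusters of RANBP6 (6), XPO4 (7) and RANBP3 (3) were in exon 0. How many exons each gene has was not determined here, and in a gene with 1 exon every exonic cluster must lie in exon 0. By contrast NXF1 had 5 of 16 and NUP133 4 of 12 there, and no NUP98 or NUP88 cluster was in exon 0. Whether these exons are untranslated was not determined here.

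**Figure D4:**
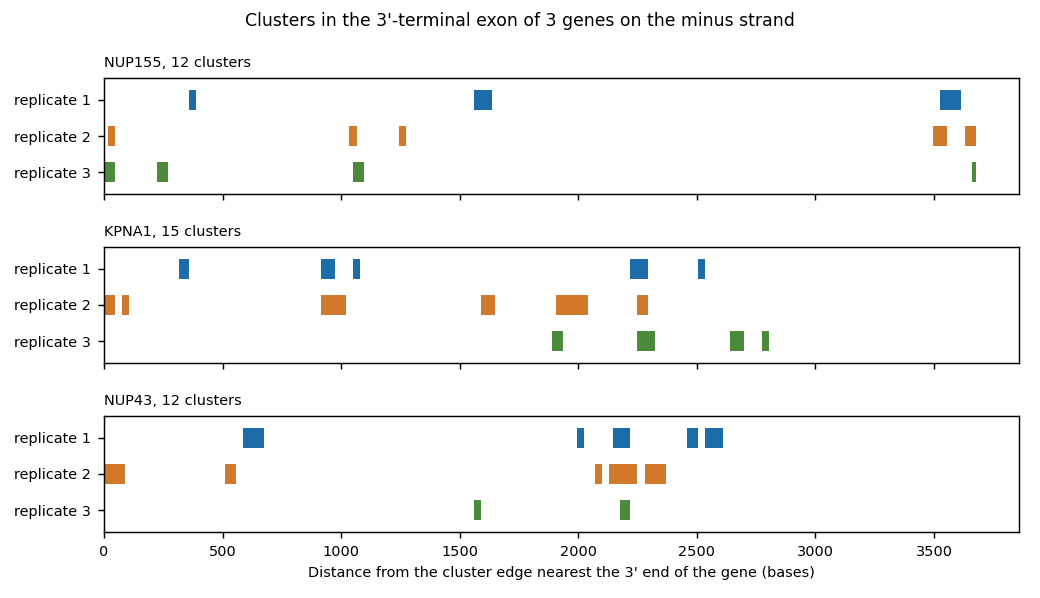
Positions of clusters in exon 0 of NUP155, KPNA1 and NUP43, as distance in bases from the cluster edge nearest the 3′ end of the gene, with 1 row per replicate. Bars are clusters drawn to scale. They are spread over about the whole stretch that holds clusters, and few lie above each other in all 3 rows.

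In KPNA1, exon 0 held 1 locus found in all 3 replicates and 2 found in 2. The locus at 122143796 to 122143901 was at 3.23% in replicate 1 and 2.81% in replicate 2, and that at 122144771 to 122144921 at 1.21% in replicate 2 and 1.47% in replicate 3. Values were close at both of these, whereas the locus found in all 3 was at 2.58%, 2.22% and 7.19%. On the plus strand, 14 of 15 NUP50 clusters lay in exon 23 and 12 of 13 POM121 clusters in exon 32, both the highest exon numbers with clusters in these genes. Other plus-strand genes had fewer in their highest such exon, with 3 of 11 in NUP205 (exon 90) and 5 of 12 in RANBP2 (exon 54). A share over all plus-strand clusters was not computed.

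Clusters confined to introns numbered 4 of 459 (0.562%, 1.32% and 0.775% of the members by replicate), against 2.19%, 2.34% and 1.71% of the other clusters. They were in IPO13 (replicate 1, 1 edited read of 16), IPO11 (replicate 2, 1 of 32), NUP43 (replicate 2, 3 of 58) and NUP188 (replicate 3, 1 of 17). The NUP43 cluster, in the intron numbered 1, had 3 edited of 67 covered C bases (4.48%) and was the only one of the 4 with over 1 edited read. The clusters of IPO11 and NUP188 also carry other gene names. A further NUP107 cluster in replicate 3 spanned an exon and an intron and had 7 edited bases in 3 reads. In all, 37 member clusters carry the name of another gene as well, among them every cluster of RCC1, IPO4 and NUP62, 10 of 11 of KPNA6 and 7 of 9 of RANBP1.

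The median edit fraction over all member clusters was 1.38%, 1.32% and 1.81% (1.51% ± 0.265), and that over the other clusters of the same replicates 1.64%, 1.65% and 1.80% (1.70% ± 0.0901). The members were lower in replicates 1 and 2, with differences of -0.255 and -0.331 percentage points, and level in replicate 3 (0.00815 points). With means in place of medians the differences were -0.517, -0.647 and -0.295 points, and with a minimum score of 0.99 the medians differed by -0.205, -0.534 and -0.457 points, so all 3 replicates were then lower (p = 0.25 for each, exact sign-flip test). The mean difference was -0.193 ± 0.178 points (exact two-sided sign-flip test over 3 replicates, p = 0.50). With 3 replicates that test cannot give a p under 0.25. Median read depth was higher in the members, at 30.8, 32.7 and 24 reads against 25.0, 24.6 and 21.0.

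Within classes of depth the members and the other clusters were close. At a depth of 10 to 20 reads the mean of the replicates' medians was 2.33% in the members and 2.32% in the others, and at 20 to 30 it was 1.65% in both. At 30 to 40 it was 1.34% and 1.39%, at 40 to 50 1.18% and 1.23%, and at 50 or more 0.794% and 0.784%. Under a depth of 10, where each replicate had 11 to 13 member clusters, it was 5.58% ± 0.956 and 5.03% ± 0.134. In each class the gap was smaller than the SD of the members' values, except at 30 to 40, where it was just above the SD of 0.0485.

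**Figure D5:**
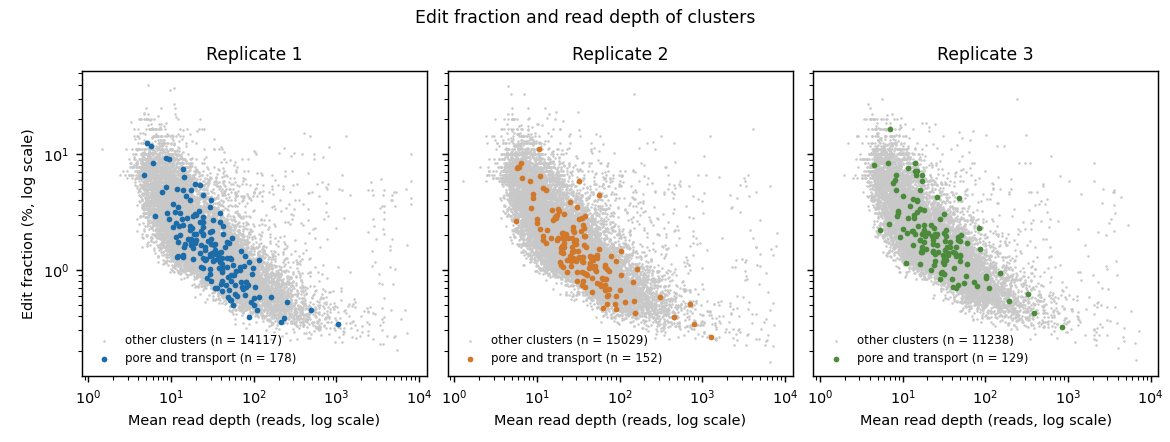
Edit fraction in percent against mean read depth of every cluster, both on log scales, with 1 panel per replicate. Coloured points are clusters of pore and transport genes (178, 152 and 129) and grey points all others; the coloured points lie within the grey band, and edit fraction falls with depth in both.

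Pooled over all clusters of a set, the edit fraction was 1.12%, 0.952% and 1.16% in the members, and 0.938%, 0.934% and 0.996% in the other clusters. The members were thus higher by this measure and lower or level by the median. The pooled value leans on few genes, because KPNA2, RAN and RANBP1 together gave 20.4%, 40.03% and 39.3% of the covered C bases and 8%, 22.8% and 14.9% of the edited ones. Without these 3 genes the members' pooled mean was 1.38% in place of 1.08%.

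Most member clusters were built on few molecules. Of the 459, 151 had 1 edited read and 319 (69.5%) at most 2, against 64.6% of the other clusters with at most 2. In 134 of the 151 that single read carried at least 2 edits, and in 22 at least 5. By replicate, at least 2 edits were carried in 92.7%, 87.8% and 85.1% of such member clusters. In the other clusters with 1 edited read it was 84.5%, 83.0% and 84.1%. For at least 5 edits the shares were 10.9%, 16.3% and 17.0%, against 14.8%, 13.9% and 15.1%, so the members were close to the others. In NUP155, 1 read of replicate 1 carried 9 edited bases in a cluster with 15 C bases (chromosome 5, 37290024 to 37290099). The median number of edits per edited read was 1.75, 2.00 and 2.00 in the members and 1.5, 1.67 and 1.71 in the other clusters. At the other end, 26 member clusters (5.66%) had at least 6 edited reads and 1.31% had at least 11, against 10.1% and 4.17% of the others. Those with at least 11 were 6 clusters, of which RAN had 4 and KPNA2 and RANBP1 1 each.

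A cluster was taken as found in all 3 replicates where clusters of both others overlapped it, strand included. That was so for 11 (6.18%), 12 (7.89%) and 11 (8.53%) of the member clusters in replicates 1, 2 and 3, against 10.6%, 9.86% and 13.1% of all clusters. The Wilson 95% intervals of the members, 3.49% to 10.7%, 4.57% to 13.3% and 4.83% to 14.6%, include the share of all clusters in each replicate. Scores of at least 0.99, the score being the authors' measure of enrichment that ends at 1, were reached by 51.1%, 58.6% and 58.1% of the members, against 60.8%, 60.1% and 61.2% of all clusters. In replicate 1 the members' interval (43.8% to 58.4%) lay below that background, and in the other 2 replicates it included it.

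Clusters with more edited reads were found in all 3 replicates more often, in the members and outside them. With 1 edited read, 8 of 151 member clusters were found in all 3 replicates (mean share 5.17% against 2.20% of the others), and with 2 edited reads 9 of 168 (5.60% against 4.05%). With 3 to 5 it was 10 of 114 (9.83% against 13.6%), and with at least 6 it was 7 of 26 (29.1% against 57.5%). The 26 clusters include 5 of RAN, none of which was overlapped in both other replicates.

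Genes of the same pathways whose symbols the names above do not cover were also counted, from a list of 26 that holds other pore subunits, mRNA export factors and the SUMO pathway of RANGAP1. Clusters were found for 25 of them (not for THOC6, of the complex that couples transcription to export) and in all 3 replicates for 18, beside the 37.9% of all gene names given above. They had 148 clusters, led by SENP2 (15), a SUMO protease, XPOT (13), the tRNA exportin, and NDC1 (12), a membrane nucleoporin. In each replicate 9 of their clusters were found in all 3, or 18.4% ± 2.02, against 7.53% ± 1.21 of the members and 11.2% ± 1.71 of all clusters. Their median depth was 42.8 ± 12.7 reads against 29.2 ± 4.54, and the part of depth in that difference was not tested.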

How the data were processed

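Poly(A) RNA of 3 replicates of HEK293T cells expressing RBFOX2-APOBEC1 was analysed from the deposited FLARE clusters, 1 list per replicate, not pooled. The submitters' processing notes name STAR and hg19 without version. Per the study's methods, the authors called edited positions with SAILOR, tested windows of 30 bases against background rates for exons, introns and depth, kept an adjusted p of 0.1 and merged within 15 bases. The counts deposited by the authors (of reads, edited reads, covered C bases and edited bases) are whole and unscaled. The edit fraction deposited by the authors was recomputed from the counts in 100% of clusters. The mean read depth is a coverage signal deposited by the authors and not scaled to library size, and the score deposited by the authors lies between 0 and 1. Windows that failed the filter are not listed.

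Members, groups of genes and lists were chosen with earlier results of these data known. Gene names were read from the labels of the clusters and matched to the RefSeq table of GRCh38.p14, from which no position was taken. Clusters were matched between replicates where they shared 1 base or more of 1 strand. Genes named are those of all loci in 3 replicates, the 10 genes with the most clusters (3 tied for the last place), the 5 with the highest pooled edit fraction among those in all 3 replicates, those with intronic clusters and those without a cluster, and, beyond this rule, genes that represent a group and were named after their values were seen. Shares have Wilson 95% intervals, and medians were compared with an exact sign-flip test over replicates. Alternatives were a depth of 50 or more, a score of 0.95 or 0.99 or more, 2 edited reads or more, an overlap of 50%, means, edited reads over reads, fewer genes and leaving out each replicate. The tools were pandas 2.3.3 and NumPy 2.4.6 in Python 3.11.15, SciPy 1.17.1 for intervals, and matplotlib 3.10.9 for figures. The overlap search was tested on simulated data and matched an exhaustive search in 100% of 500 intervals. An hg19 sequence was not used here, so motifs in clusters were not analysed.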

Additional observations from a re-analysis of the deposited data

How the results depend on the processing

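Samples could not be paired between groups because they form 1 group. The sign-flip test paired member clusters with the other clusters of the same replicate. The share of member clusters found in all 3 replicates went from 7.53% to 6.23% with a minimum score of 0.95 and 4.74% with 0.99. It was 4.11% with a minimum depth of 50 and 5.33% with at least 2 edited reads. These filters were applied to all 3 lists before matching, so a cluster could also lose its partners. The shares thus do not show that stricter clusters recur less. Matched against the full lists, clusters with more edited reads recurred more often, as given above. The share of all clusters under the same filters is not given here. With an overlap of 50% of both clusters the members' share was 4.18%. In clusters with 1 gene name, an alternative chosen after seeing the data, it was 6.02%. A minimum score of 0.99 left 85.0 clusters per replicate in place of 153, a median edit fraction of 1.89% and a pooled one of 1.21%. A minimum depth of 50 left 36.0 clusters in 21.0 genes per replicate, 0.929% of all clusters, a median of 0.794% and a pooled value of 0.637%. It also reversed the difference in median from the other clusters to 0.0104 points (p = 1.0, exact sign-flip test, n = 3). The mean edit fraction was 2.14% in place of the median of 1.51%, and the pooled value without KPNA2, RAN and RANBP1, chosen after seeing the data, was 1.38%. The other 29 of 46 alternatives kept counts within 1.5 times, values without a test within 1 SD, and the difference in median at the same sign without passing 0.05. Among these, the difference was over 1.5 times larger with a minimum score of 0.99 (-0.399 points) and with means (-0.486 points), and smaller with at least 2 edited reads (-0.0719 points), which left 102.7 clusters per replicate. With each replicate left out in turn, the difference ranged from -0.293 to -0.124 points, and 15.4% to 20.7% of clusters were found in both of the remaining replicates, as fewer replicates have to share a cluster. Edited reads over all reads, in place of edited over covered C bases, had a higher mean at all 12 named loci. Since a read can cover several C bases, that direction says little about stability. The order of the replicates changed at some loci, among them the higher POM121 locus, KPNA6 and XPO6. In replicate 3 the higher POM121 locus was at 4.17% by reads and 6.67% by bases. The cause of these shifts was not tested beyond the settings themselves. The number of edited reads limits the precision of single clusters, of which 151 rest on 1.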
